A study of Mus musculus with 12 samples.

Results

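Translation initiation factor genes were examined in cultured smooth muscle cells from the mouse aorta at a low and a high glucose level. The set held every gene whose single symbol in the array's annotation began with Eif and a number, except the eIF2 kinases (symbols starting with Eif2ak), and each was represented by its brightest probe set. This gave 47 of the 22180 genes measured: 45 protein-coding genes, the pseudogene Eif1-ps3 and the non-coding RNA Eif2c5. All 12 samples were primary cells of the inbred mouse strain C57BL/6J, grown in DMEM medium containing 10% FCS (fetal calf serum) and used in passage 3 or 4. A first group of 6 was held at 0.3 g/l glucose (1.7 mM) and a second group of 6 at 4.5 g/l (25 mM), for 14 days by the series text or for 1 week by the sample labels. No osmotic control was analysed here, and the labels do not say whether replicates came from separate cultures or animals, so the p-values capture how far these samples scatter, and that scatter may be technical only. Values are log2 RMA values from an Affymetrix whole-transcript array, on which a step of 1 is a doubling of signal; levels are compared within a gene, and between relatives only the change with glucose is compared.

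Initiation factors bring the small ribosomal subunit, the initiator tRNA and the mRNA together at the start codon. The GTPase eIF2 carries the initiator tRNA and is recharged by the exchange factor eIF2B, a step that stops when stress kinases phosphorylate eIF2. The cap-binding protein eIF4E, the scaffold eIF4G and the helicase eIF4A recruit the mRNA, and 4E-binding proteins hold eIF4E back unless the kinase mTORC1 phosphorylates them. In the vessel wall, protein synthesis through these steps accompanies smooth muscle growth and hypertrophy. The arrays measured RNA and not protein, phosphorylation or translation.

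The 0.3 g/l replicate 4 stood apart: over all genes, its closest 0.3 g/l array correlated with it at 0.987 and its closest 4.5 g/l array at 0.992. Of the smooth muscle markers, 8 of 8 lay above the dimmest 25% of genes and 6 rose in 4.5 g/l; their mean was 9.07 to 9.29 in the other 0.3 g/l arrays, 10.22 in replicate 4 and 10.59 to 10.79 in 4.5 g/l. Of 8 endothelial markers, 8 lay above it too, 4 of 5 fibroblast markers and 3 of 5 macrophage markers; detection calls were not used here, so none could be called absent. The mean of the endothelial markers was 7.71 in 0.3 g/l replicate 4 and 7.54 to 7.58 in 4.5 g/l replicates 4 to 6, against 8.21 to 8.30 in the other 0.3 g/l arrays and 8.23 to 8.31 in 4.5 g/l replicates 1 to 3. Fibroblast marker means were 4.99 to 5.24 in 0.3 g/l and 4.87 to 5.35 in 4.5 g/l, and macrophage marker means 4.93 to 5.36 and 4.88 to 5.21. Only Emcn, an endothelial sialomucin, passed among these 18 markers of other cell types (1.35-fold lower in 4.5 g/l, limma adjusted p = 0.0236). Fewer cells of a type and less RNA per cell cannot be told apart in such cultures, and the part of these marker shifts in the results was not tested.

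Where initiation factor genes changed with glucose, they were lower in 4.5 g/l. Of 47 genes, 11 fell and none rose: the translation repressor Eif4ebp1, the subunit-joining regulator Eif6, the eIF3 core subunit Eif3c, the eIF2 GTPase activator Eif5, Eif1a, Eif1ad, Eif1b, the eIF2 subunit Eif2s2, the eIF2B subunits Eif2b2 and Eif2b3, and Eif5a. The falls ran from 1.18-fold for Eif5a to 1.67-fold for Eif4ebp1. The other 36 did not pass; their log2 differences lay between -0.20 and 0.15. By limma (p-values adjusted by Benjamini-Hochberg across the 22180 genes, threshold 0.05), 15.5% of all genes passed, 8.52% as lower and 7.01% as higher. The 11 lower members were 23.4% of the set. All 47 members lay above the dimmest 25% of genes. In a fit of the 16635 genes above that bound, 23.8% passed, both directions counted, with 13 members lower and none higher. The share lower alone in that fit is not given here. Counts read against all 22180 genes, here and below, may therefore look more exceptional than against genes of like signal. At an unadjusted limma p under 0.05, 17 members were lower and 1, the eIF1A gene Eif1ax, was higher, beside 3362 lower and 2750 higher among all 22180 genes; an exact rank-sum test called 9 lower and none higher (8.99% of all genes, 4.35% lower and 4.63% higher). The median log2 difference was -0.11 over the members and -0.01 over all genes. Of the members, 35 of 47 (51.8% of all genes) had a negative difference.

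**Figure D1:**
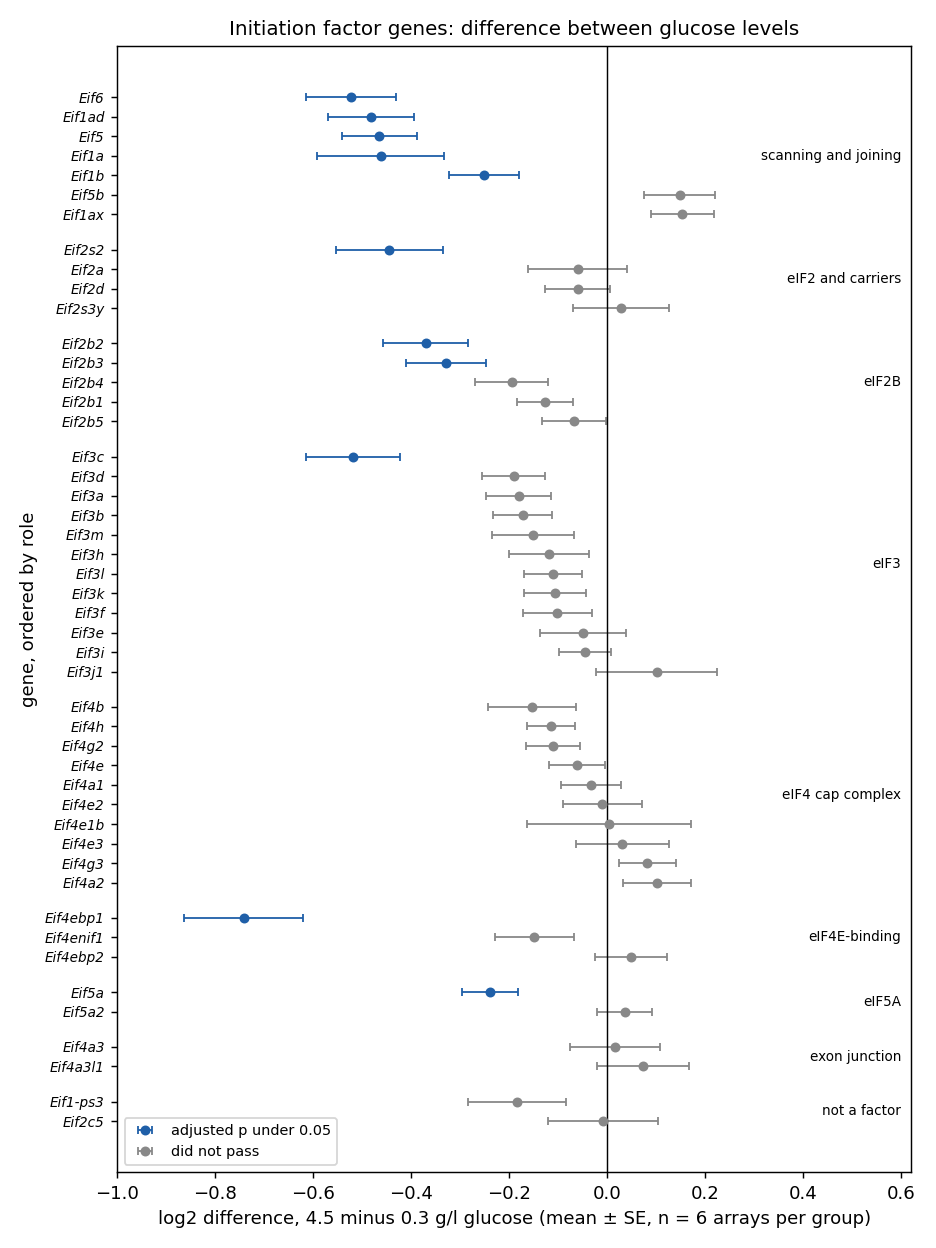
Log2 difference between 4.5 and 0.3 g/l glucose for each of the 47 genes (x axis, mean ± SE, n = 6 arrays per group), ordered by role; blue points passed an adjusted p of 0.05 in limma. All 11 genes that passed lie left of 0, with Eif4ebp1 farthest at -0.74, and 5 of them are in the group labelled scanning and joining.

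The groups did not overlap for 7 members, all lower in 4.5 g/l, where 6.4% of all genes did not overlap. These were Eif4ebp1, Eif6, Eif1ad, Eif5, Eif2b2, Eif5a and Eif4h; Eif4h, a cofactor of the eIF4A helicase, was 1.08-fold lower and did not pass (limma adjusted p = 0.142). Without 0.3 g/l replicate 4, 15 members were lower and none higher, where 23.9% of all genes passed (13.6% lower, 10.3% higher). All 11 remained among them. The additional 4 were Eif3a, Eif3b, Eif3d and Eif4g2. With that array left out, 16 members did not overlap between the groups, against 18.9% of all genes. It was singled out from these same values, in which it lay nearer to 4.5 g/l. Smaller p-values without it, here and below, are therefore descriptive and no added support. Replicates 1 to 3 alone gave 10 lower members and none higher (7.16% and 5.92% of all genes). Replicates 4 to 6 alone gave 0 members in either direction (0.0406% of all genes lower, 0.0947% higher). In that fit 9 members had an unadjusted limma p under 0.05. The share of all genes at that level is not given here, so this count cannot be read against it. Once 0.3 g/l replicate 4 was left out, replicates 4 to 6 gave 9 lower members and none higher (8.94% and 6.55% of all genes).

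Promoters are shown for 4 members that fell, to set the sequence in front of these genes beside their common direction. They run from 250 bases before the transcription start to 50 after it, 5′ to 3′ on the gene's strand, from RefSeq on GRCm38.p6. Capitals mark every match, on either strand, to any of 5 motifs: CCAAT (the CCAAT box), CACGTG (the E-box), CCGGAAGT (a site of ETS factors), TGATGNAA (the core of the amino acid response element) and the endoplasmic reticulum stress element, which begins with CCAAT and so overlaps the first. Eif5 lies at chr12:111537851-111538150 (plus strand), Eif3c at chr7:126566317-126566616 (minus), Eif2b2 at chr12:85219231-85219530 (plus) and Eif1b at chr9:120492356-120492655 (plus).
Eif5: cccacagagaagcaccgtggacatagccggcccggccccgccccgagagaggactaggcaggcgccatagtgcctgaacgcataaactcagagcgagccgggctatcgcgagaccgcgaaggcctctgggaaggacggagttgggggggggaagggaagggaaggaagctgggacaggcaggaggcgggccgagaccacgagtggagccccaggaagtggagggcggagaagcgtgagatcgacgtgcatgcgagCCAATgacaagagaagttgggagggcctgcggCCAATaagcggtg
Eif3c: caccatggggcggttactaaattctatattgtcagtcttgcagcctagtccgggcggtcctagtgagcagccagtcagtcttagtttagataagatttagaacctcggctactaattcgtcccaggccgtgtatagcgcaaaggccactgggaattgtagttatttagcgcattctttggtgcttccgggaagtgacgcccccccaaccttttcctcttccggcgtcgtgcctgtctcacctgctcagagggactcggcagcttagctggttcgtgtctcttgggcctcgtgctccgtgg
Eif2b2: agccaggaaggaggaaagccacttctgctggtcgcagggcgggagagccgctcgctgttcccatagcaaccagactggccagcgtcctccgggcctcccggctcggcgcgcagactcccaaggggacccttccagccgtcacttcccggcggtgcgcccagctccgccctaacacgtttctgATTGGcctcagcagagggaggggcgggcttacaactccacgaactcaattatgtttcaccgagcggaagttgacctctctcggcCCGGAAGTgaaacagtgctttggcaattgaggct
Eif1b: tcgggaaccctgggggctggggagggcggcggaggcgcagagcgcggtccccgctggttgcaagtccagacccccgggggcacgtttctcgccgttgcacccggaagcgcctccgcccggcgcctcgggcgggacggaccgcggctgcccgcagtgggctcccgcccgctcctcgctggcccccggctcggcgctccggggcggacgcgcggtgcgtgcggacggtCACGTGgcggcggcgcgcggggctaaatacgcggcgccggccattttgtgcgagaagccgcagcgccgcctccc
The Eif5 window held 2 CCAAT boxes, both just after the start, Eif2b2 a CCAAT box and an ETS site, Eif1b an E-box and Eif3c none of the 5. RefSeq promoters were matched for 36 of the 47 genes, 7 of them among the 11 that fell. The CCAAT box was in a promoter of 13 of the 36 genes (36.1%, against 41.1% of all 27025 genes with a promoter) and of 3 of the 7. The E-box was found for 9 of 36 (25.0%, against 8.09%) and 2 of the 7, and the ETS site for 7 of 36 (19.4%, against 4.31%) and 2 of the 7. Neither the amino acid response core (4.51% of all genes) nor the stress element (0.137%) was found for any of the 36. A match is a run of letters, not a site shown to be used.

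The group of scanning, start codon choice and subunit joining factors held 5 of the 11 falls among 7 genes, where 8.52% of all genes were lower. Eif1ad was counted in this group, but a part of its protein in these steps was not tested. The calls of Eif1a and Eif1b were lost when some single arrays were left out. Eif5, which makes eIF2 hydrolyse its GTP at the start codon, lay at 10.46, 10.85 and 10.91 in 0.3 g/l (lowest, median and highest of 6 arrays) and at 10.27, 10.32 and 10.40 in 4.5 g/l. The groups did not overlap, although 0.3 g/l replicate 4 was the low value of its group. The log2 difference was -0.47 ± 0.08 (SE), a 1.38-fold fall (limma adjusted p = 0.00132), and -0.53 without that array.

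Eif6, which keeps the ribosomal subunits apart until the large subunit is ready to join, lay at 8.95, 9.09 and 9.20 in 0.3 g/l and at 8.33, 8.55 and 8.80 in 4.5 g/l. All 4.5 g/l arrays were below all 0.3 g/l arrays, and 4.5 g/l replicates 4 to 6 (8.33 to 8.46) were below replicates 1 to 3 (8.65 to 8.80). It fell 1.44-fold (log2 -0.52 ± 0.09, limma adjusted p = 0.00199), by 0.39 within replicates 1 to 3 and by 0.70 within replicates 4 to 6 without 0.3 g/l replicate 4.

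Eif1ad, named for an eIF1A-like domain, lay at 7.60, 7.91 and 8.00 in 0.3 g/l and at 7.18, 7.35 and 7.53 in 4.5 g/l. The groups did not overlap. The fall was 1.40-fold (log2 -0.48 ± 0.09, limma adjusted p = 0.00232). Eif1a and Eif1ax both encode eIF1A, which helps the ribosome scan for the start codon. Eif1a lay at 9.03, 9.75 and 9.79 in 0.3 g/l and at 8.93, 9.17 and 9.38 in 4.5 g/l.

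The groups overlapped for Eif1a through a single array, 0.3 g/l replicate 4 at 9.03, while the other 5 lay at 9.72 to 9.79. That array and 4.5 g/l replicates 4 to 6 (8.93 to 9.05), the 4 arrays with the lowest endothelial marker means, had the 4 lowest values; the part of those cells in this result was not tested. Eif1a fell by 0.46 ± 0.13 (limma adjusted p = 0.0257) and by 0.58 without that array (limma adjusted p = 0.000176). Within replicates 1 to 3 it fell by 0.42 (limma adjusted p = 0.00743). Its call was lost when any 1 of 8 arrays was left out, 0.3 g/l replicates 1, 2, 3, 5 and 6 and 4.5 g/l replicates 4, 5 and 6 (limma adjusted p = 0.0572 to 0.0608).

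Eif1ax lay at 9.45, 9.51 and 9.66 in 0.3 g/l and at 9.59, 9.65 and 9.86 in 4.5 g/l. It differed by 0.15 ± 0.06 and did not pass (limma adjusted p = 0.133). Eif1b, a relative of eIF1, the factor that guards start codon choice, lay at 8.71, 9.00 and 9.09 in 0.3 g/l and at 8.59, 8.71 and 8.78 in 4.5 g/l. Only 0.3 g/l replicate 2 reached into the other group. Eif1b fell 1.19-fold (limma adjusted p = 0.0272), a call lost without any 1 of 7 arrays, 0.3 g/l replicates 1, 3, 5 and 6 and 4.5 g/l replicates 3, 4 and 6 (limma adjusted p = 0.0512 to 0.0683) and within replicates 1 to 3 (log2 -0.18, limma adjusted p = 0.350). Eif5b, the GTPase that joins the subunits, differed by 0.15 ± 0.07 (limma adjusted p = 0.207). Genes of near-identical sequence, such as Eif1a and Eif1ax or the pseudogene Eif1-ps3 and the Eif1 genes, can share probe signal, so their separate values are uncertain.

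Genes of eIF2 and of other carriers of the initiator tRNA gave 1 fall among 4, where 8.52% of all genes were lower. Eif2s2, the beta subunit of eIF2, lay at 6.98, 7.30 and 7.42 in 0.3 g/l and at 6.51, 6.85 and 7.17 in 4.5 g/l. The groups overlapped, with 0.3 g/l replicate 4 lowest in its group and 4.5 g/l replicate 6 highest in the other. It fell 1.36-fold (log2 -0.45 ± 0.11, limma adjusted p = 0.0132). The fall was 0.63 within replicates 1 to 3 and 0.40 within replicates 4 to 6 without 0.3 g/l replicate 4, the latter not past the threshold (limma adjusted p = 0.0568). Eif2a and Eif2d, which can deliver the initiator tRNA without eIF2, each differed by -0.06, and the Y-linked gamma subunit gene Eif2s3y by 0.03. Neither passed the test, nor did Eif2s3y, whose sequence is close to that of its X-linked copy. The alpha subunit gene Eif2s1 was not analysed here.

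All 5 subunits of eIF2B, the exchange factor of eIF2, had negative differences (51.8% of all genes), and 2 passed as lower (8.52% of all genes). Eif2b2, of its regulatory part, lay at 8.07, 8.28 and 8.34 in 0.3 g/l and at 7.62, 7.89 and 8.06 in 4.5 g/l. The groups were parted by a narrow gap, with 0.3 g/l replicate 4 just above 4.5 g/l replicates 1 to 3 (8.01 to 8.06) and replicates 4 to 6 lower (7.62 to 7.77). The fall was 1.29-fold (log2 -0.37 ± 0.09, limma adjusted p = 0.0100). It was 0.24 within replicates 1 to 3 (limma adjusted p = 0.0573) and 0.57 within replicates 4 to 6 without 0.3 g/l replicate 4.

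Eif2b3, of the catalytic part, lay at 7.23, 7.65 and 7.69 in 0.3 g/l and at 7.16, 7.25 and 7.39 in 4.5 g/l. Only 0.3 g/l replicate 4, at 7.23, lay among the 4.5 g/l arrays. Eif2b3 fell 1.26-fold (log2 -0.33 ± 0.08, limma adjusted p = 0.0141). Eif2b4 differed by -0.20 ± 0.07 (limma adjusted p = 0.0983) and Eif2b1 by -0.13 ± 0.06 (0.164). The catalytic subunit gene Eif2b5 lay at 7.55, 7.84 and 7.90 in 0.3 g/l and at 7.66, 7.74 and 7.80 in 4.5 g/l, again with replicate 4 lowest (log2 -0.07 ± 0.07, limma adjusted p = 0.571).

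**Figure D2:**
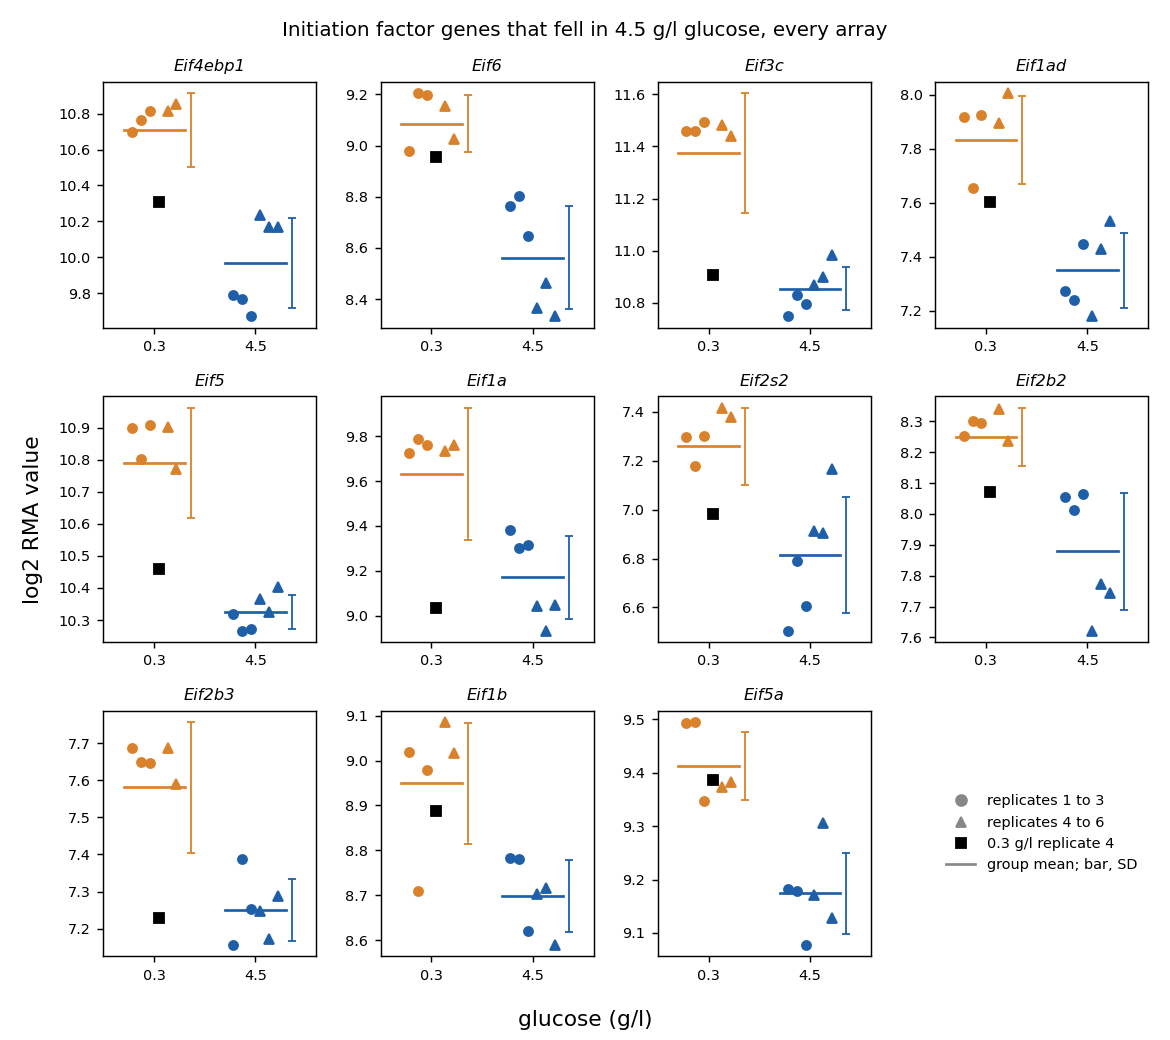
Log2 RMA value (y axis) of the 11 genes that fell, in each of the 12 arrays, at 0.3 and 4.5 g/l glucose (x axis), with group means and SD bars (n = 6); the scales differ between panels. The black square, 0.3 g/l replicate 4, lies below the other 5 arrays of its group for 9 of the 11 genes, and among the 4.5 g/l arrays for 4.

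The eIF3 complex, the large scaffold on the small subunit, had 12 genes measured. Of these, 1 fell (8.33%, near the 8.52% of all genes that were lower) and 11 did not pass. Eif3c lay at 10.91, 11.46 and 11.49 in 0.3 g/l and at 10.75, 10.85 and 10.98 in 4.5 g/l. The 5 other 0.3 g/l arrays lay at 11.44 to 11.49, well above every 4.5 g/l array, and replicate 4 lay at 10.91, among them. Eif3c fell by 0.52 ± 0.10 with all arrays (1.43-fold, limma adjusted p = 0.00264) and by 0.61 without replicate 4 (limma adjusted p = 2.95e-06).

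Eif3a, a scaffold subunit, lay at 10.84, 11.14 and 11.23 in 0.3 g/l and at 10.88, 10.92 and 10.96 in 4.5 g/l. Replicate 4 of 0.3 g/l was the lowest of all 12 arrays, and the other 5 lay above all 4.5 g/l arrays. Over 12 arrays its difference of -0.18 ± 0.07 missed the threshold (limma adjusted p = 0.0840), and without replicate 4 it was -0.23 and passed (limma adjusted p = 0.00246). The core subunit Eif3b (-0.17) and the cap-contacting subunit Eif3d (-0.19) likewise passed only with that array left out or under some other settings (limma adjusted p = 0.0674 and 0.0614 with 12 arrays). The other 8 subunit genes differed by -0.15 for Eif3m to 0.10 for Eif3j1. The median over the 12 was -0.12, against -0.01 over all genes, and 11 of 12 differences were negative, as were 51.8% over all genes. Eif3g was not analysed here.

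None of the 10 genes grouped here with the cap-binding eIF4 complex, relatives of its parts included, passed in limma. At an unadjusted limma p under 0.05 there was 1, Eif4h, and the same gene passed in the rank-sum test. Their median log2 difference was -0.02. The cap-binding protein gene Eif4e lay at 9.82, 9.92 and 10.00 in 0.3 g/l and at 9.73, 9.85 and 9.96 in 4.5 g/l. The helicase gene Eif4a1 lay at 12.93, 13.07 and 13.27 in 0.3 g/l and at 13.01, 13.03 and 13.12 in 4.5 g/l. The groups overlapped widely for both, with differences of -0.06 ± 0.06 and -0.03 ± 0.06.

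Its relative Eif4a2 differed by 0.10 ± 0.07 (9.45, 9.59 and 9.65 against 9.51, 9.67 and 9.89). Eif4g2, a scaffold that lacks the eIF4E-binding part, lay at 11.89, 12.06 and 12.12 in 0.3 g/l and at 11.87, 11.94 and 11.98 in 4.5 g/l. Over 12 arrays its difference of -0.11 ± 0.05 missed the threshold (limma adjusted p = 0.215). With 0.3 g/l replicate 4 left out it was -0.14 and lay past the threshold (limma adjusted p = 0.0442). The helicase cofactor Eif4b depended on the arrays used: it differed by -0.15 ± 0.09 over all arrays, and by -0.34 within replicates 1 to 3, where it passed (limma adjusted p = 0.0236). Its 4.5 g/l values were 10.52 to 10.62 for replicates 1 to 3, whereas replicates 4 to 6 reached 10.89 to 11.02. The scaffold gene Eif4g3 and the eIF4E relatives Eif4e2, Eif4e3 and Eif4e1b differed by -0.01 to 0.08. The gene Eif4g1 was not analysed here.

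The repressor Eif4ebp1 had the largest difference among the 47 genes. Its protein binds eIF4E and keeps the scaffold away, and the gene is a known target of the stress factor ATF4. In 0.3 g/l the 6 arrays lay at 10.31, 10.79 and 10.86, and in 4.5 g/l at 9.67, 9.98 and 10.24. All 6 arrays of 4.5 g/l were below all of 0.3 g/l. The 0.3 g/l replicate 4 (10.31) came next to 4.5 g/l replicates 4 to 6 (10.17 to 10.24), while 4.5 g/l replicates 1 to 3 lay lower, at 9.67 to 9.79.

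Eif4ebp1 fell from 10.71 ± 0.20 to 9.97 ± 0.25 (mean ± SD, n = 6; probe set 17500327), a log2 difference of -0.74 ± 0.12 (SE, limma adjusted p = 0.00122). The difference was -0.82 without 0.3 g/l replicate 4, -1.02 within replicates 1 to 3 and -0.64 within replicates 4 to 6 without that array, and it passed in each. Eif4ebp2, a second repressor of eIF4E, lay at 8.27, 8.33 and 8.60 in 0.3 g/l and at 8.32, 8.42 and 8.58 in 4.5 g/l. The groups overlapped throughout (0.05 ± 0.07, limma adjusted p = 0.743). Eif4enif1, which carries eIF4E into the nucleus and to P-bodies, differed by -0.15 ± 0.08 (limma adjusted p = 0.264).

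**Figure D3:**
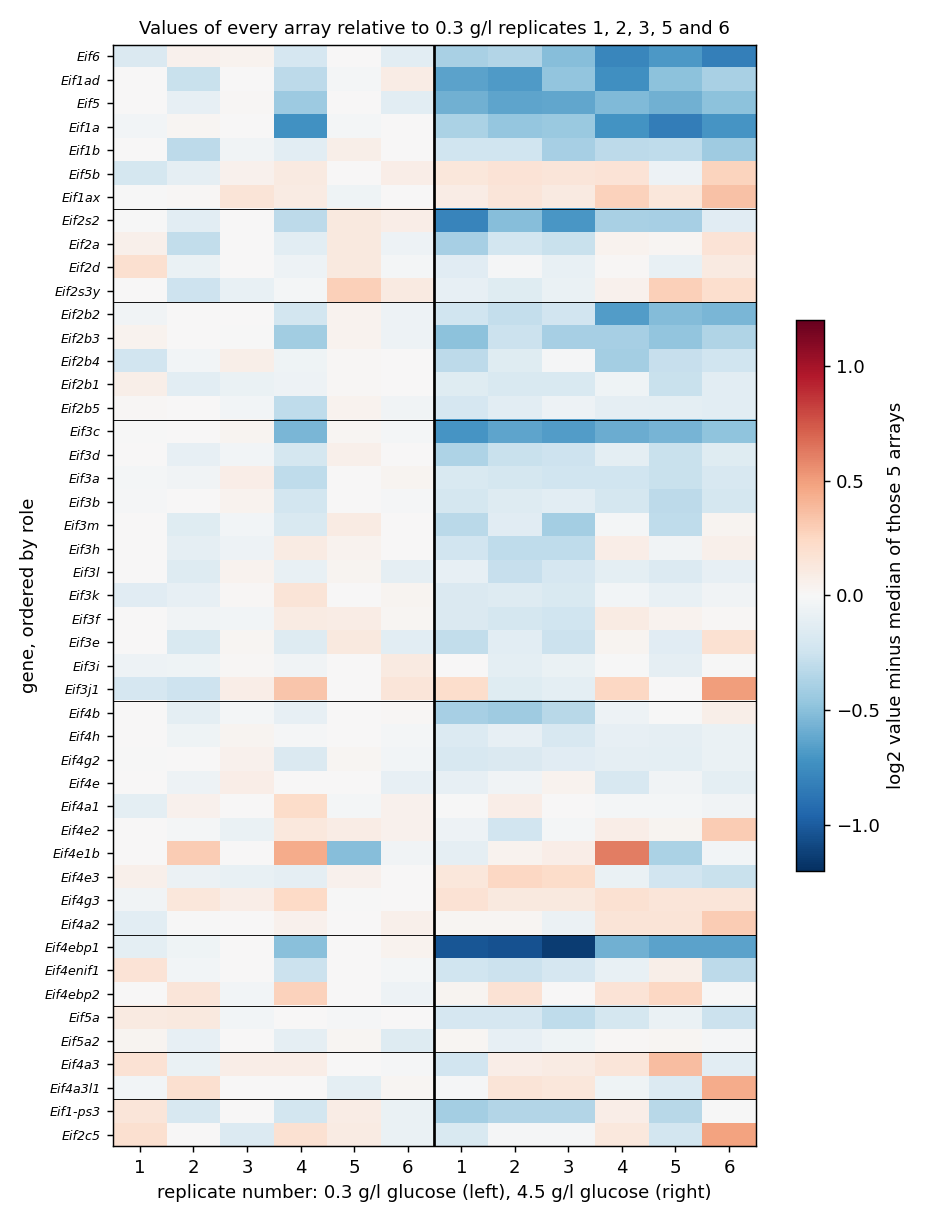
Log2 value of each of the 47 genes (rows, ordered by role) in each array (columns, by replicate number, 0.3 g/l left and 4.5 g/l right), as the difference from the median of 0.3 g/l replicates 1, 2, 3, 5 and 6. Blue rows such as Eif4ebp1, Eif5 and Eif3c span all 4.5 g/l arrays and also 0.3 g/l replicate 4; Eif4b is blue in 4.5 g/l replicates 1 to 3 only.

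Eif5a, which carries the modified amino acid hypusine and helps ribosomes through difficult peptide bonds, lay at 9.35, 9.38 and 9.50 in 0.3 g/l and at 9.08, 9.17 and 9.31 in 4.5 g/l. The groups did not overlap, and 0.3 g/l replicate 4 (9.39) lay within its own group. The fall was small (1.18-fold, log2 -0.24 ± 0.06, limma adjusted p = 0.0114) and was -0.24 without that array as well. Within replicates 4 to 6 without it, it differed by -0.18, short of the threshold (limma adjusted p = 0.246). Its relative Eif5a2 lay at 8.66, 8.77 and 8.85 and at 8.72, 8.82 and 8.85 and differed by 0.04 ± 0.06. The exon junction helicase gene Eif4a3 and its copy Eif4a3l1, which share sequence, differed by 0.02 and 0.07. Eif1-ps3 (-0.18) and Eif2c5 (-0.01) did not pass either.

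Whether relatives changed unequally was examined on their difference in each array, for 8 pairs taken after the values were seen. A two-sided exact permutation test was used, with Benjamini-Hochberg over the 8 (the smallest raw p possible was 0.00216). The pairs of Eif4ebp1, Eif1a and Eif5a set a gene already called lower beside a relative that did not pass. Their p-values are therefore descriptive and no separate evidence of unequal change. Eif4ebp1 fell relative to Eif4ebp2 by 0.79 (exact permutation adjusted p = 0.0231), and Eif1a relative to Eif1ax by 0.62 (exact permutation adjusted p = 0.0231). Eif5a fell relative to Eif5a2 by 0.27 (exact permutation adjusted p = 0.0173), with no overlap between the groups. Without 0.3 g/l replicate 4 these became 0.91, 0.75 and 0.27, each at an exact permutation adjusted p of 0.00433. Eif4g2 against Eif4g3 passed only without that array (exact permutation adjusted p = 0.0563 with it and 0.00433 without). For Eif4a1 against Eif4a2, Eif4e against Eif4e2 or Eif4e3, and Eif4b against Eif4h, the differences of -0.13 to -0.04 did not pass (exact permutation adjusted p = 0.149 to 0.634).

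**Figure D4:**
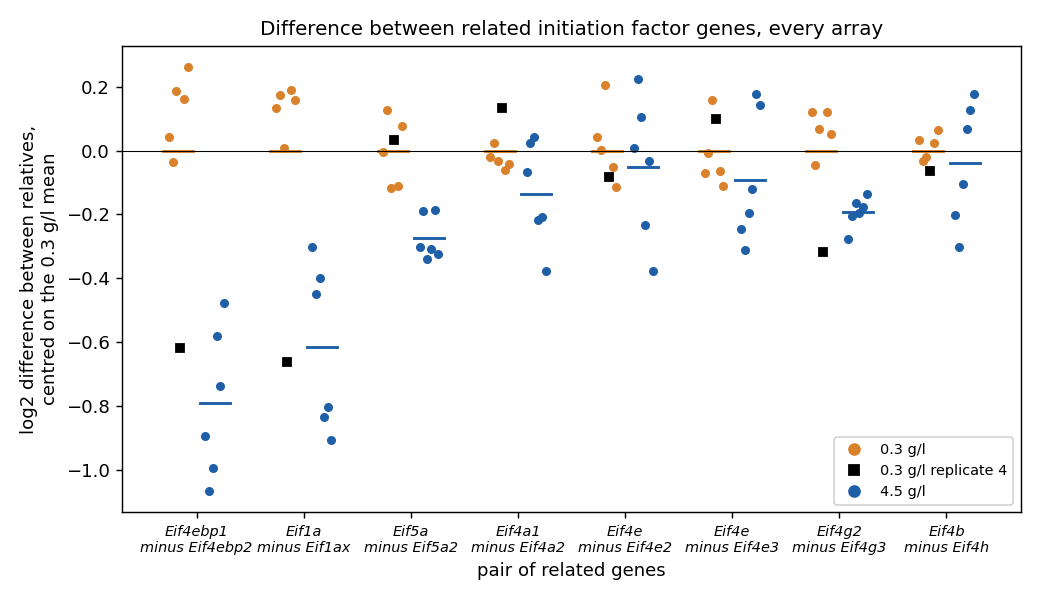
Log2 difference between related genes in each array (y axis), centred on the 0.3 g/l mean of each of the 8 pairs (x axis); short lines are group means (n = 6). For Eif5a minus Eif5a2 all 4.5 g/l arrays lie below all 0.3 g/l arrays; for Eif4ebp1 minus Eif4ebp2 and Eif1a minus Eif1ax, 0.3 g/l replicate 4 (black) lies among the 4.5 g/l arrays.

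In 4.5 g/l glucose the arrays of replicates 4 to 6 all lay above those of replicates 1 to 3 for 14 members (12.5% of all genes), among them Eif4ebp1, Eif2s2, Eif3c, Eif5 and Eif4b. They all lay below them for 5 members (15.3% of all genes): Eif1a, Eif2b2, Eif4a1, Eif4e3 and Eif6. The labels give no batch, and these number ranges were seen in the data. No test compared the ranges with each other. The limma fits within a range use the same arrays as the main fit and are not separate support. The falls of Eif4ebp1, Eif3c, Eif5, Eif6, Eif1a, Eif1ad and Eif2b3 passed both within replicates 1 to 3 and within replicates 4 to 6 without 0.3 g/l replicate 4.

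Genes that control initiation from outside the complex were taken from 5 lists, read against 8.52% of all genes lower and 7.01% higher. In the list of eIF2 kinases and regulators of eIF2 phosphorylation, which also held Atf4, 6 of 10 fell and none rose. The median log2 difference was -0.27. Ppp1r15a, the stress-induced subunit that directs a phosphatase to eIF2, was 2.49-fold lower (log2 -1.31 ± 0.24, limma adjusted p = 0.00261); 0.3 g/l replicate 4 lay at 6.96, among the 4.5 g/l arrays at 6.81 to 7.14. Dnajc3, an inhibitor of eIF2 kinases, was 1.90-fold lower (limma adjusted p = 0.00551), with replicate 4 at 10.42 among 10.33 to 10.72. For both genes 4.5 g/l replicates 4 to 6 lay below replicates 1 to 3. Ppp1r15a lay at 6.81 to 7.00 against 7.12 to 7.14, and Dnajc3 at 10.33 to 10.48 against 10.64 to 10.72. Atf4 had the reverse order. The part of the endothelial marker shift in these values was not tested. Atf4, the transcription factor translated when eIF2 is phosphorylated, fell 1.61-fold with no overlap between the groups (limma adjusted p = 0.000822). The endoplasmic reticulum kinase Eif2ak3 fell 1.25-fold (limma adjusted p = 0.00574), whereas the amino acid-sensing kinase Eif2ak4 differed by 0.13 ± 0.08 (limma adjusted p = 0.384).

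Of 20 measured genes of mTORC1 and its control of 4E-binding proteins, 8 fell (8.52% of all genes) and none rose (7.01%), with a median of -0.15. The genes with the smallest p restrain mTORC1: Sesn2 (1.57-fold lower, limma adjusted p = 0.000117), Akt1s1 (1.43-fold, limma adjusted p = 0.00150), Deptor (1.31-fold, limma adjusted p = 0.00836) and Tsc1 (1.33-fold, limma adjusted p = 0.00960). Sesn2, an ATF4 target, did not overlap between the groups, and its 0.3 g/l replicate 4 (8.69) lay just below the rest of its group (8.75 to 8.79). The other 4 that fell, named after their values were seen, were Flcn and the Rag GTPase genes Rragb, Rragc and Rragd, whose proteins bring mTORC1 to the lysosome; Rragd differed most (3.10-fold, limma adjusted p = 0.0316), with replicate 4 at 5.75 below all 4.5 g/l arrays (5.78 to 7.19). The kinase gene Mtor itself differed by 0.01 ± 0.05 (limma adjusted p = 0.952) and the mTORC1 inhibitor Ddit4 by 0.11 ± 0.06 (limma adjusted p = 0.277).

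Partners of the cap, the poly(A) tail and scanning gave 2 falls among 15 (13.3%, close to the 8.52% of all genes that were lower), Paip2b (1.21-fold, limma adjusted p = 0.0259), a repressor that binds poly(A)-binding protein, and the ribosome recycling factor Abce1 (1.13-fold, limma adjusted p = 0.0327). Elongation and termination factors gave 3 falls among 13 (23.1%, against the same 8.52%). All 13 differences were negative (51.8% of all genes), with a median of -0.13. The 3 that fell were Eef1e1 (1.37-fold, limma adjusted p = 0.00263), a scaffold of the tRNA synthetase complex, and the eEF1 subunits Eef1g (1.19-fold, limma adjusted p = 0.0174) and Eef1d (1.13-fold, limma adjusted p = 0.0326). The kinase gene Eef2k, whose protein halts elongation, differed by -0.11 ± 0.10 (limma adjusted p = 0.505). Of the mitochondrial initiation factors Mtif2 and Mtif3, neither passed. None of the genes in these 5 lists rose (limma; none also at an unadjusted p under 0.05).

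**Figure D5:**
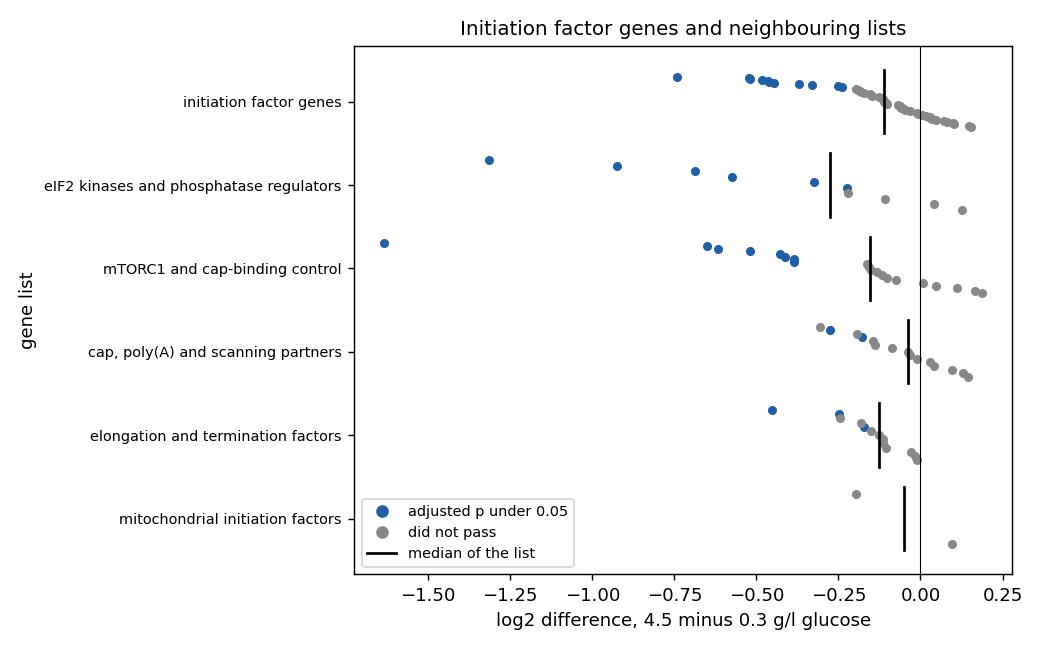
Log2 difference between 4.5 and 0.3 g/l glucose (x axis) of each gene in the initiation factor set and in 5 neighbouring lists (y axis); blue points passed an adjusted p of 0.05 in limma and black lines are list medians. All blue points lie left of 0, and the medians run from -0.27 for eIF2 kinases and phosphatase regulators to -0.04 for partners of the cap and the poly(A) tail. The list of eIF2 kinases and phosphatase regulators also holds Atf4.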

How the data were processed

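RNA of 12 samples was measured, 6 per glucose level. The authors deposited a table of log2 values, made with Affymetrix Expression Console and RMA per the submitters' processing notes; RMA corrects background, quantile-normalizes arrays and summarises probes, which hides any difference in the amount of RNA per cell. Versions, build, scan dates and detection calls were not given in the sources used here. Of 41345 probe sets, 23521 had 1 gene symbol, 1814 several (not named, 8 with an initiation factor among them) and 16010 none here. The probe set with the highest mean stood for each of 22180 genes; 3 members had several. The group comparison used limma 3.58.1 under R 4.3.3 (lmFit and eBayes, no block, two-sided, Benjamini-Hochberg, threshold 0.05). It was also run on simulated data of independent arrays, without a deviant array or a split of replicate numbers. That run does not bear on the p-values of these data. Figures used matplotlib 3.10.9.

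Members and lists were chosen with earlier results of these data known. Full values were given for members past the threshold and for 10 fixed genes that were measured; from each neighbouring list up to 4 passing genes with the smallest p were named, plus Eif2ak3, Eif2ak4, Ppp1r15a, Ddit4, Mtor, Eef2k and Atf4. Of 90 entries in these and the marker lists, 86 were measured. Alternatives were a variance trend, a filter on the dimmest 25% of genes, 3 normalizations, probe set means, array weights, the replicate block, an exact rank-sum test, leaving out arrays and number ranges of replicates. The number of arrays limits the precision (median SE 0.0931, log2).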

Additional observations from a re-analysis of the deposited data

Results flagged for a closer look

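In a group of 6 arrays, a sample was singled out when its gap to the nearest other, divided by the range of the group, exceeded Dixon's 95% critical value of 0.625. This applied to 12 of 128 groups of named genes, where chance gives about 1 in 20, and in 11 of them the sample was 0.3 g/l replicate 4, the lowest of its group. Its log2 values were 9.03 for Eif1a (the other 5 arrays 9.72 to 9.79), 7.23 for Eif2b3 (7.59 to 7.69), 7.55 for Eif2b5 (7.81 to 7.90), 10.84 for Eif3a (11.10 to 11.23), 9.77 for Eif3b (9.97 to 10.03) and 10.91 for Eif3c (11.44 to 11.49). They were 10.31 for Eif4ebp1 (10.70 to 10.86) and 10.46 for Eif5 (10.77 to 10.91). Among the neighbouring genes they were 10.42 for Dnajc3 (11.60 to 11.74), 6.96 for Ppp1r15a (8.55 to 8.68) and 7.35 for Eef2k (7.72 to 7.89). The remaining value was that of 0.3 g/l replicate 1 for Eif4a2, at 9.45 (9.57 to 9.65).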

How the results depend on the processing

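No member was called higher in 4.5 g/l under any of the 25 alternatives, and none of the 11 falls changed sign. The count of lower members, 11, was 9 to 15 when single arrays were left out (highest without 0.3 g/l replicate 4). Under the other alternatives it was also 9 to 15, except replicates 4 to 6 alone, where it was 0. Over all genes, 11.3% to 23.9% passed in the single-array fits. The share was 8.99% to 24.4% under the other alternatives and 0.135% in replicates 4 to 6 alone. The filter on the dimmest 25% gave 13 lower members, where 23.8% of the genes kept passed. Shares in this paragraph count both directions. Quantile normalization, cyclic loess and median centring gave 11, 11 and 12, where 15.7%, 15.6% and 15.6% of all genes passed (15.5% in the reported fit). Array weights gave 15, where 24.4% of all genes passed; without 0.3 g/l replicate 4 that share was 23.9%. The labels give both groups numbers 1 to 6 but do not say that these pair samples, so the numbers were not taken as pairs. Deviations of same-numbered arrays from their group means correlated at -0.05 to 0.17. These correlations cannot exclude pairing, because 0.3 g/l replicate 4 and the split of the 4.5 g/l replicates weigh on them. With the replicate block 10 were lower, without Eif1b, where 14.1% of all genes passed. The rank-sum test gave 9, losing Eif1a, Eif1b and Eif2b3 and adding Eif4h. Of the 36 members that did not pass, 12 changed sign under at least 1 alternative, with differences of up to 0.15 in size, so their signs are not settled. The number of arrays and the distance from background, not known here, limit what can be seen in differences this small.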

Other observations

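For 3 members other probe sets with the same single symbol were measured. The 2 dimmer probe sets of Eif4a2 differed by 0.29 and 0.33 between 4.5 and 0.3 g/l, against 0.10 for the brightest. A dimmer probe set of Eif4a1 differed by -0.08, against -0.03. The second probe set of Eif3d, at a mean of 4.19 within the dimmest 25% of genes (below 4.202), differed by 0.08, against -0.19 for the brightest. These are values without a test.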
